A study of Danio rerio with 17 samples.

Results

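Sox10-low cells of ocular tumours were compared with sox10-low cells of control eye tissue in adult zebrafish. The 7 libraries were chosen by their labels alone from the 17 of a study of the surroundings of malignant peripheral nerve sheath tumours. Cancer_Low, called the tumour libraries below, holds 4, and Control_Low, called the control libraries, holds 3. Ocular tissue had been removed, dissociated with enzymes and sorted by fluorescence, and polyadenylated RNA was sequenced from both fragment ends. The control fish carried the reporter tg(sox10:RFP) and no other listed allele, and were 4.6, 5.0 and 5.0 months old. The fish with tumours carried the same reporter with the brca2 hg5 allele in homozygous state, and were 7.5, 8.1, 8.1 and 10.4 months old. Part of their genotype is not reported here, and no drug or other agent is listed for either group. The promoter of sox10, a neural crest and glial factor gene, drives the red fluorescent protein, so the sox10-low gate is defined by weak fluorescence and not by a marker of its own. It can hold any cell type of the tissue, which the labels call the microenvironment. The labels do not say whether each library came from a different animal or a pool. The tests therefore rest on variation among libraries only, which may be technical, and its size was estimated over all 17 libraries. Genotype, age, tumour state, library index range and a code in the sample names (ONP for controls, OT for tumours) differ together between the groups and cannot be told apart. The meaning of the codes is not given here, so whether the same part of the eye was taken is not known.

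Sox10-low tissue of a healthy eye is made of neural retina, pigment epithelium, cornea and conjunctiva, stroma, vessels and resident immune cells. Photoreceptors catch light with opsins, corneal epithelium rests on a basement membrane through hemidesmosomes, and both layers use Hedgehog, Wnt, bone morphogenetic protein and fibroblast growth factor signals. Tumour surroundings commonly hold macrophages, neutrophils, lymphocytes and matrix-producing fibroblasts, and interferons switch on antiviral and antigen-processing genes in most cell types.

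Library totals were 58711787 to 72098199 counts in the control libraries and 76285392 to 87244522 in the tumour libraries. The controls held 1028 to 2185 gene IDs with 3 to 20 counts and the tumours 3361 to 3574, and 64 to 73.8% against 51.4 to 53.9% of counts between 20 and 100 were even numbers. The distribution of low counts thus differed between the groups, and its part in the results on low genes was not tested. Pearson correlations of log2 CPM (counts scaled to a common library total) were 0.908 to 0.93 among controls, 0.884 to 0.953 among tumours and 0.751 to 0.787 between the groups. The gene whose promoter drives the reporter, SOX10 (ENSDARG00000077467), was at 11.2, 13.4 and 11.6 CPM in control libraries 1, 2 and 3 and at 69.1, 16, 46.5 and 418 CPM in tumour libraries 1, 2, 3 and 4 (log2 fold change 3.51 ± 0.80, adjusted p = 0.00297, or 1.87 without Cancer_Low 4). The sox10-high tumour libraries held 1026 ± 272 CPM (mean ± SD, n = 4), and Cancer_Low 4 came nearest to them of the sox10-low tumour libraries. brca2 (ENSDARG00000079015) was transcribed in both groups, at 6.53 ± 0.738 CPM (n = 3) and 18 ± 6.46 CPM (n = 4), and counts do not show its base changes.

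The 2 groups differed across a large share of the transcriptome. Of 23299 genes tested with edgeR, 4015 were higher in the tumour libraries (17.2%) and 3616 were lower (15.5%) at an adjusted p under 0.05. Among them, 1295 were higher by more than 3 on the log2 scale and 1760 lower by more than 3, and the median over all genes was 0.17. Without Control_Low 3 the higher genes were 2632 and the lower ones 2921. Leaving out Cancer_Low 4, the library with the most SOX10, gave 3839 and 3641. Values of the groups did not overlap for 5740 genes in the higher direction (24.6%) and 5060 in the lower (21.7%). Fitted folds of genes near 0 in a group depend on the prior count. Of the higher genes, 339 had no counts in any control library, and 18 of the lower had none in any tumour library. In bulk RNA, fewer cells of a type and less RNA per cell cannot be told apart, which applies to each result that follows. Counts of gene list members below stand beside shares over all genes of 17.2% higher and 15.5% lower.

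**Figure D1:**
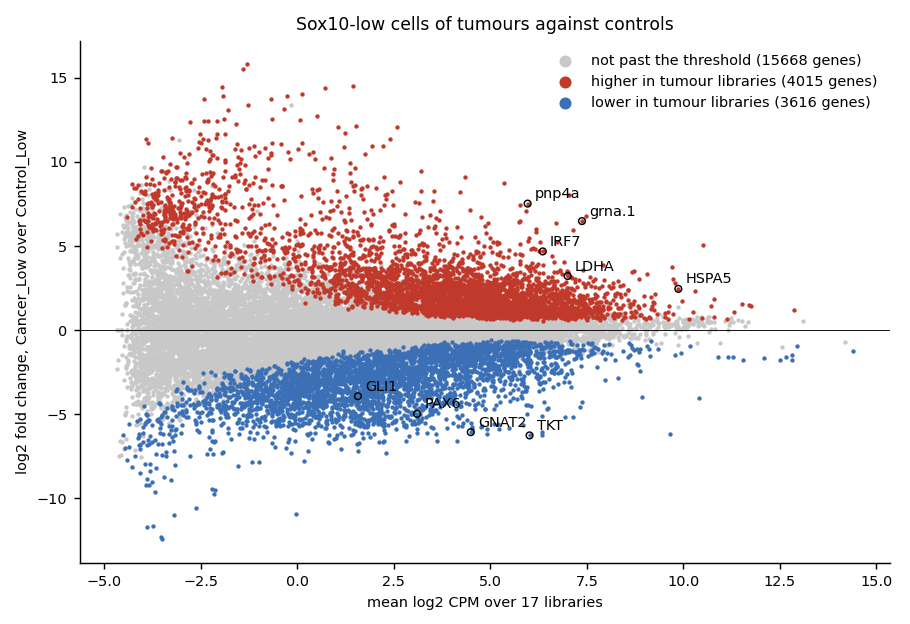
Log2 fold change of tumour over control libraries (vertical axis) against mean log2 CPM over the 17 libraries (horizontal axis), 1 point per gene tested. Coloured points passed an adjusted p under 0.05, 4015 higher and 3616 lower, and the named genes are among those described in the text.

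The most abundant transcripts changed between the groups. TKT (ENSDARG00000029689), a transketolase of the pentose phosphate pathway, went from 4599.9, 3294 and 3194 CPM in the controls to 48.6, 98.8, 20.3 and 25.8 CPM in the tumours (log2 fold change -6.26 ± 0.54, adjusted p = 8.63e-07). In mammals transketolase is known as an abundant protein of the cornea. The tumour libraries were led by other genes. grna.1 (ENSDARG00000089362), a granulin, a secreted growth factor precursor that macrophages release, held 24.1, 36.6 and 44.8 CPM in the controls and 4183, 5358, 2298 and 729 CPM in the tumours (log2 fold change 6.48 ± 0.83, adjusted p = 2.82e-05). Each tumour library exceeded every control library, by an amount that was smallest in Cancer_Low 4. actb2 (ENSDARG00000037870), cytoplasmic actin, had 6659.6, 5665 and 5864 CPM in the controls and 12460, 18708, 14182 and 9987 CPM in the tumours (log2 fold change 1.19 ± 0.26, adjusted p = 0.00221). tmsb4x (ENSDARG00000077777), the actin-binding peptide thymosin beta, had 2426, 2168 and 2081 CPM in the controls and 5624, 6915, 7080 and 4688 CPM in the tumours (log2 fold change 1.45 ± 0.34, adjusted p = 0.00412). HSPA8 (ENSDARG00000068992), a chaperone present in all cells, had 2036, 1634 and 1722 CPM in the controls and 5106, 7527, 4964 and 3458 CPM in the tumours (log2 fold change 1.55 ± 0.28, adjusted p = 0.000588). For all of these genes the 2 groups did not overlap.

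Most visual pigment genes and retinal transcription factor genes tested were lower in the tumour libraries. Of 12 visual pigment genes tested, 9 fell and 0 rose, with a median log2 fold change of -5.19 beside 0.17 for all genes. Of 30 retinal transcription factor genes, 17 fell and 0 rose (median -2.99), with rises of 1 without Cancer_Low 4. crx (ENSDARG00000011989), the factor that drives photoreceptor genes, had 127, 209 and 211 CPM in the controls and 9.45, 12.1, 4.25 and 5.41 CPM in the tumours (log2 fold change -4.54 ± 0.47, adjusted p = 4.55e-06). PAX6 (ENSDARG00000103379), an eye field factor kept in adult retina and corneal epithelium, had 343, 221 and 178 CPM in the controls and 7.54, 13.2, 5.92 and 4.85 CPM in the tumours (log2 fold change -4.97 ± 0.64, adjusted p = 3.00e-05). Controls and tumours did not overlap in either gene. rx2 (ENSDARG00000040321), a retinal homeobox factor, fell by 5.15 on the log2 scale (adjusted p = 2.65e-05), and NEUROD1 (ENSDARG00000019566), a factor of photoreceptors and amacrine cells, by 3.54 (adjusted p = 0.000315). Genes of neurons and glia are given as single examples. SLC1A2 (ENSDARG00000052138), a glutamate transporter of neurons and glia, had 82.8, 215 and 115 CPM in the controls and 0.563, 1.88, 1.47 and 1.51 CPM in the tumours (log2 fold change -6.66 ± 1.15, adjusted p = 0.000376). GFAP (ENSDARG00000025301), an intermediate filament of glia, had 35.3, 50.6 and 51.2 CPM in the controls and 4.95, 4.74, 3.94 and 4.79 CPM in the tumours (log2 fold change -3.31 ± 0.33, adjusted p = 2.58e-06).

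The retinoid cycle, which returns bleached pigment to its active form, had more members lower than higher. Of 23 genes of the visual cycle and pigment epithelium, 13 fell and 4 rose. The falls are 56.5% of the list, beside 15.5% of all genes, and the rises 17.4%, near the 17.2% of all genes. ABCA4 (ENSDARG00000062661), the retinoid flippase of photoreceptor discs, had 128, 204 and 245 CPM in the controls and 5.71, 7.51, 4.15 and 4.12 CPM in the tumours (log2 fold change -5.16 ± 0.37, adjusted p = 3.32e-07). rbp3 (ENSDARG00000059163), the retinoid carrier between photoreceptors and pigment epithelium, had 251, 407 and 370.2 CPM in the controls and 15.3, 14.1, 13 and 10.4 CPM in the tumours (log2 fold change -4.70 ± 0.41, adjusted p = 8.63e-07). RBP4 (ENSDARG00000101199), the retinol carrier of plasma, had 468, 449 and 485 CPM in the controls and 61.2, 43.1, 34.2 and 20.5 CPM in the tumours (log2 fold change -3.56 ± 0.47, adjusted p = 4.21e-05). The groups did not overlap in any of them, and the 4 list members that rose include CTSB (ENSDARG00000055120), a lysosomal cathepsin described below. A pair of cone genes was named for the size of the fall. GNAT2 (ENSDARG00000042529), the cone transducin subunit, had 324, 838 and 374 CPM in the controls and 5.14, 6.33, 11.9 and 7.32 CPM in the tumours (log2 fold change -6.06 ± 0.47, adjusted p = 5.27e-07). ARR3 (ENSDARG00000098475), the cone arrestin, had 292, 699.9 and 312 CPM in the controls and 6.96, 5.72, 7.38 and 4.63 CPM in the tumours (log2 fold change -6.14 ± 0.47, adjusted p = 4.19e-07). Lens transcripts were rare in both, at 13.1 to 40 and 3.81 to 8.74 CPM in sum. The lens chaperone CRYAA (ENSDARG00000053502) had 0.51, 0.489 and 8.95 CPM in the controls and no counts in any tumour library. Its call (adjusted p = 0.0268) ended without Cancer_Low 1 (adjusted p = 0.0501), Cancer_Low 3 (adjusted p = 0.052) or Control_Low 3 (adjusted p = 0.0867).

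Most epithelial adhesion genes tested were lower, and the epithelium they came from was not tested. Of 37 keratin, junction and epithelial factor genes, 28 fell and 3 rose (median log2 fold change -2.52). PAX6, given above as a retinal factor, is also among these falls. JUP (ENSDARG00000070787), plakoglobin of desmosomes, had 2387, 1263 and 1375 CPM in the controls and 198, 322, 157 and 239.7 CPM in the tumours (log2 fold change -2.87 ± 0.34, adjusted p = 1.57e-05). krt15 (ENSDARG00000036840), a basal keratin, had 1241, 569.6 and 641 CPM in the controls and 137, 55.9, 98.4 and 73.9 CPM in the tumours (log2 fold change -3.16 ± 0.44, adjusted p = 6.07e-05). GRHL1 (ENSDARG00000061391), a grainyhead factor that maintains epithelia, had 118, 69.5 and 69.6 CPM in the controls and 6.73, 7.62, 3.1 and 5.04 CPM in the tumours (log2 fold change -3.93 ± 0.55, adjusted p = 6.21e-05). The groups did not overlap for these genes. cdh1 (ENSDARG00000102750), E-cadherin, had 591, 452 and 548 CPM in the controls and 133, 187, 87.3 and 70.7 CPM in the tumours (log2 fold change -2.15 ± 0.52, adjusted p = 0.00475). cldn7b (ENSDARG00000014047), a claudin of tight junctions, did not pass the test (log2 fold change -0.96 ± 0.50, adjusted p = 0.15), though it did without Cancer_Low 2 and with limma voom.

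Basement membrane genes fell more often than they rose. Of 27 tested, 10 fell and 5 rose. The rises are 18.5% of the list, beside 17.2% of all genes, and the rising ones were 2 without Control_Low 1, 3 without Cancer_Low 1, Cancer_Low 4, Control_Low 2 or Control_Low 3, 3 with limma voom and a tissue block, 3 at a mean count of at least 100 and 3 in a fit of only these 7 libraries. col17a1b (ENSDARG00000079011) and col17a1a (ENSDARG00000069415) encode the hemidesmosome collagen that anchors basal epithelium. The first had 1478, 683 and 924 CPM in the controls and 78, 111, 151 and 90.8 CPM in the tumours (log2 fold change -3.26 ± 0.43, adjusted p = 3.95e-05). The second had 318, 309.8 and 369 CPM in the controls and 12.4, 11, 27.3 and 20.3 CPM in the tumours (log2 fold change -4.23 ± 0.59, adjusted p = 5.87e-05). LAMA5 (ENSDARG00000058543), a laminin chain of epithelial basement membranes, had 50.7, 50.3 and 60.1 CPM in the controls and 7.95, 8.02, 7.3 and 8.87 CPM in the tumours (log2 fold change -2.74 ± 0.44, adjusted p = 0.000203). These falls placed every tumour library under every control. NID1 (ENSDARG00000103129), nidogen, a linker of laminin and collagen networks, moved the other way, with 4.24, 10.2 and 9.71 CPM in the controls and 279.8, 19.7, 57.3 and 41.6 CPM in the tumours (log2 fold change 3.63 ± 0.90, adjusted p = 0.00563, and 2.29 without Cancer_Low 1, which held the most).

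Hedgehog receptors and targets were lower in the tumour libraries. Of 14 genes of the pathway, 8 fell and 0 rose (median log2 fold change -1.71). GLI1 (ENSDARG00000101244), a transcription factor gene that the pathway itself switches on, had 15.1, 26.5 and 29.8 CPM in the controls and 2.5, 1.33, 1.44 and 0.989 CPM in the tumours (log2 fold change -3.93 ± 0.53, adjusted p = 5.08e-05). PTCH1 (ENSDARG00000016404), the receptor and a target, had 22.5, 30.9 and 29.8 CPM in the controls and 4.01, 3.02, 2.56 and 2.18 CPM in the tumours (log2 fold change -3.24 ± 0.43, adjusted p = 4.37e-05). HHIP (ENSDARG00000060397), a ligand-trapping target, had 18, 63.9 and 73.9 CPM in the controls and 1.79, 0.85, 1.35 and 3.94 CPM in the tumours (log2 fold change -4.71 ± 0.61, adjusted p = 3.47e-05). The highest tumour value of each of these targets lay under the lowest control value. The co-receptor gene BOC (ENSDARG00000074335) fell by 2.90 on the log2 scale (adjusted p = 5.21e-05), and CDON (ENSDARG00000061328), another co-receptor gene, fell by 3.13 (adjusted p = 0.000154). SMO (ENSDARG00000002952), the signal transducer Smoothened, did not pass the test (log2 fold change -1.25 ± 0.48, adjusted p = 0.0562), but passed without Cancer_Low 4 (adjusted p = 0.0026) and with RLE size factors, DESeq2, limma voom and both stricter filters on low counts. SUFU (ENSDARG00000056801), the cytoplasmic inhibitor, also did not pass the test (log2 fold change -0.36 ± 0.27, adjusted p = 0.332).

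Ligands and receptors of other growth factor pathways were also lower in more cases than they were higher. Among Wnt ligands and inhibitors 9 of 35 fell and 1 rose, and among Wnt receptors and targets 10 of 28 fell and 1 rose. These falls are 25.7% and 35.7% of the lists, beside 15.5% of all genes. The rises are 2.86% and 3.57%, beside 17.2%. The rising Wnt ligands and inhibitors were 2 without Control_Low 2 and 2 with DESeq2, and the rising receptors and targets 0 without Control_Low 1, 0 with limma voom and a tissue block, 2 with DESeq2 and 3 without Cancer_Low 2. The falling Wnt ligands and inhibitors were 14 with limma voom and a tissue block. WNT7A (ENSDARG00000044827), a Wnt ligand of epithelia, had 43.4, 32.5 and 30.1 CPM in the controls and 2.36, 1.87, 0.797 and 0.892 CPM in the tumours (log2 fold change -4.58 ± 0.57, adjusted p = 2.27e-05). dkk1b (ENSDARG00000045219), a Wnt antagonist, had 30.5, 22.4 and 18.6 CPM in the controls and 0.438, 0.127, 1.84 and 0.639 CPM in the tumours (log2 fold change -4.96 ± 1.14, adjusted p = 0.00333). Of transforming growth factor beta and bone morphogenetic protein ligands, 11 of 26 fell and 2 rose (42.3% and 7.69%). BMP7 (ENSDARG00000063230), a bone morphogenetic protein, had 56.2, 50 and 53.5 CPM in the controls and 4.06, 2.02, 2.36 and 0.784 CPM in the tumours (log2 fold change -4.53 ± 0.53, adjusted p = 1.35e-05). ID1 (ENSDARG00000040764), a target of that pathway, had 443, 324 and 434 CPM in the controls and 121, 109, 125 and 129.8 CPM in the tumours (log2 fold change -1.73 ± 0.26, adjusted p = 0.000131). Within the family 2 transforming growth factors went opposite ways. TGFB3 (ENSDARG00000019367) fell with 185, 202 and 172 CPM in the controls and 44.6, 22.5, 25.4 and 10.1 CPM in the tumours (log2 fold change -2.86 ± 0.40, adjusted p = 6.17e-05). In contrast tgfb1b (ENSDARG00000034895) rose with 7.14, 7.01 and 4.78 CPM in the controls and 51.9, 81.8, 70.4 and 33.8 CPM in the tumours (log2 fold change 3.24 ± 0.64, adjusted p = 0.00113). Both kept every tumour library on one side of the controls.

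Receptor tyrosine kinase genes fell in 15 of 38 cases and rose in 1 (2 without Cancer_Low 2 or Cancer_Low 3 and 2 with DESeq2), and their ligands fell in 12 of 48 and rose in 6 (3 without Control_Low 1 and 3 with limma voom and a tissue block). The falling ligands were 19 with DESeq2 and 19 with limma voom and a tissue block. In the main fit 39.5% of the receptors fell and 2.63% rose. Of the ligands 25% fell and 12.5% rose, beside 15.5% and 17.2% of all genes. FGFR2 (ENSDARG00000058115), a receptor of fibroblast growth factors in epithelia, had 99.3, 105 and 133 CPM in the controls and 14.9, 13.9, 12 and 16.9 CPM in the tumours (log2 fold change -2.96 ± 0.45, adjusted p = 0.000129). DDR1 (ENSDARG00000078523), a collagen-sensing kinase, had 148, 144 and 173 CPM in the controls and 16.6, 14, 7.55 and 5.12 CPM in the tumours (log2 fold change -3.84 ± 0.76, adjusted p = 0.00103). MDK (ENSDARG00000036036), midkine, a heparin-binding growth factor of eye development, had 505, 496 and 434 CPM in the controls and 186, 112, 96.1 and 98.3 CPM in the tumours (log2 fold change -1.96 ± 0.28, adjusted p = 8.30e-05). The ligand VEGFA (ENSDARG00000034700), a vascular growth factor, stood against this direction with 8.2, 8.87 and 10.1 CPM in the controls and 42.7, 107, 26.7 and 59.3 CPM in the tumours (log2 fold change 2.71 ± 0.51, adjusted p = 0.000708). Of 24 Notch genes, 4 rose and 6 fell (16.7% and 25%, beside 17.2% and 15.5% of all genes). With 1 library left out, 0 to 3 rose and 4 to 7 fell. jag1b (ENSDARG00000013168), a Notch ligand, had 411, 227 and 384 CPM in the controls and 48.2, 26.7, 37.1 and 49.9 CPM in the tumours (log2 fold change -3.07 ± 0.37, adjusted p = 1.72e-05), and NOTCH3 (ENSDARG00000052139), a Notch receptor of mural cells, fell by 2.11 on the log2 scale (adjusted p = 0.000353). For each single gene named here the groups did not overlap.

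**Figure D2:**
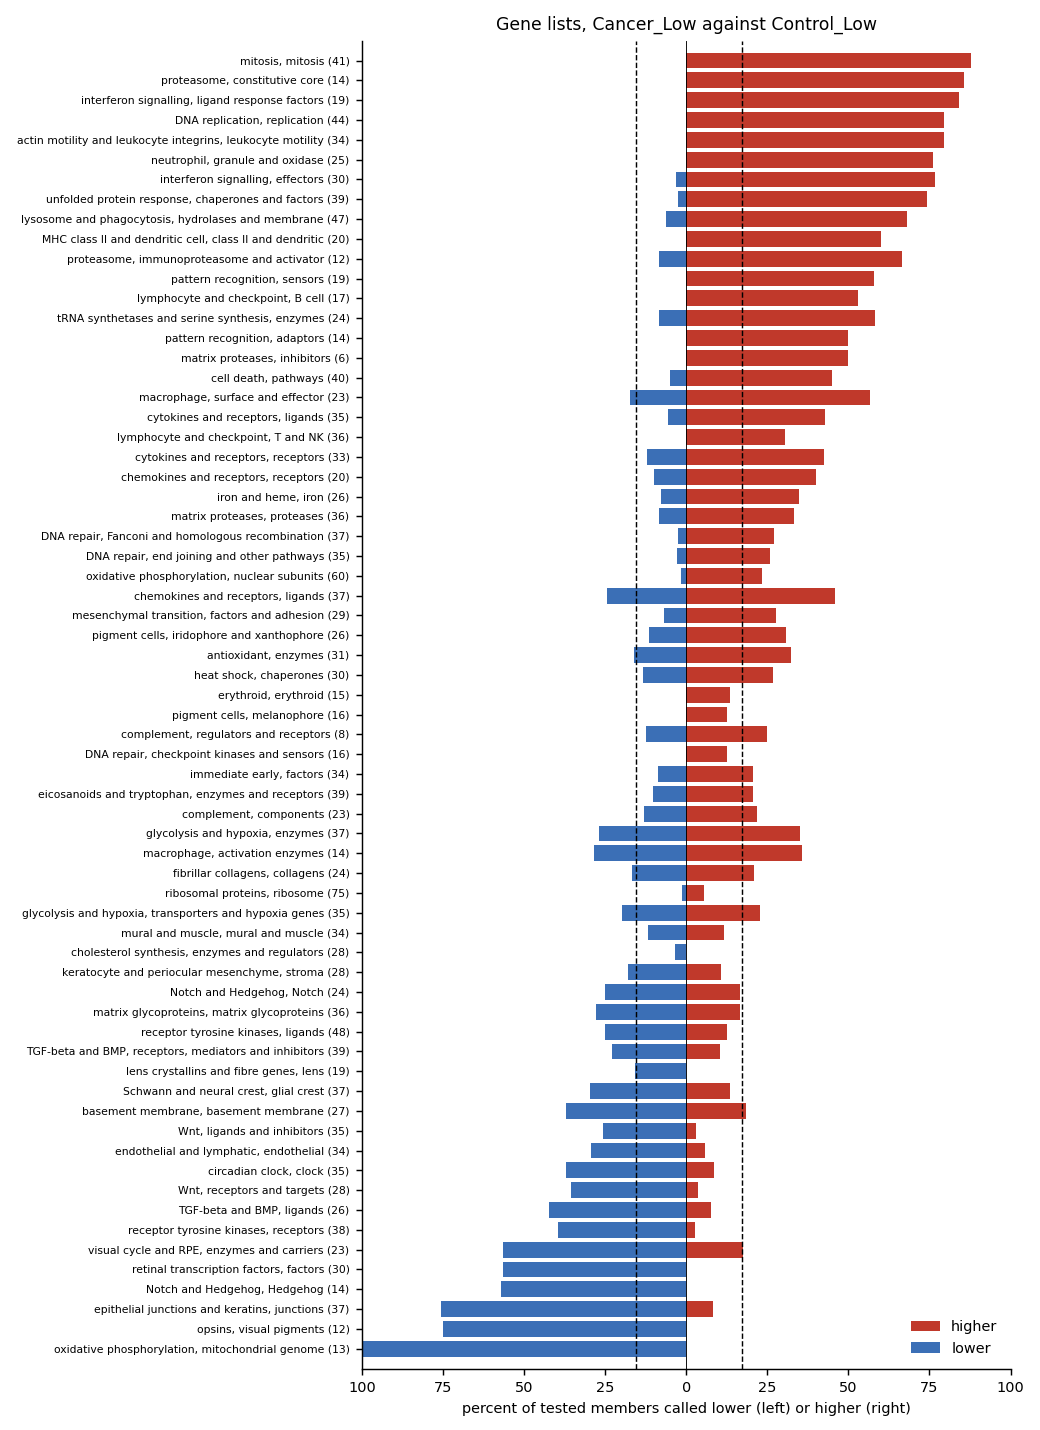
Share of each gene list's tested members that passed an adjusted p under 0.05 as higher (right) or lower (left) in the tumour libraries, in percent on the horizontal axis, with 1 bar pair per list or role. Dashed lines mark the share over all 23299 genes, 17.2% higher and 15.5% lower.

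Interferon factors, effectors and nucleic acid sensors rose in the tumour libraries. Of 19 signalling and response factor genes, 16 rose and 0 fell, and of 30 effectors 23 rose and 1 fell (0 without Cancer_Low 2, Cancer_Low 3, Cancer_Low 4, Control_Low 1 or Control_Low 2 and 0 at a mean count of at least 100). IRF7 (ENSDARG00000045661), the factor that amplifies type I interferon, had 20.8, 9.45 and 23.9 CPM in the controls and 528, 520.4, 683 and 122 CPM in the tumours (log2 fold change 4.68 ± 0.72, adjusted p = 0.000143). isg15 (ENSDARG00000086374), a ubiquitin-like antiviral modifier, had 7.8, 2.82 and 13.2 CPM in the controls and 572, 429, 668 and 308 CPM in the tumours (log2 fold change 5.96 ± 0.77, adjusted p = 3.17e-05). Cancer_Low 4 was the lowest tumour library for both, and still lay above the controls. The feedback inhibitor socs1b (ENSDARG00000089873) had 0.273, 0.489 and 1.26 CPM in the controls and 23.7, 36.2, 39.6 and 14.3 CPM in the tumours (log2 fold change 5.39 ± 0.62, adjusted p = 1.09e-05). Sensors of foreign nucleic acid and bacterial products rose in 11 of 19 cases and fell in 0 (1 with DESeq2, 1 with limma voom and a tissue block and 1 in a fit of only these 7 libraries). DHX58 (ENSDARG00000089463), a helicase sensor of viral RNA, had 3.15, 3.23 and 7.85 CPM in the controls and 222, 177, 223 and 60.7 CPM in the tumours (log2 fold change 5.17 ± 0.77, adjusted p = 0.000114). CGAS (ENSDARG00000021572), the sensor of cytosolic DNA, had 3.39, 1.91 and 2.94 CPM in the controls and 34.1, 36.7, 46.2 and 7.66 CPM in the tumours (log2 fold change 3.50 ± 0.70, adjusted p = 0.00116). ifi44a8 (ENSDARG00000093857), an interferon-inducible gene named for the size of its rise, held 0, 0.359 and 0.33 CPM in the controls and 72.7, 149, 120 and 87.8 CPM in the tumours (log2 fold change 8.83 ± 1.11, adjusted p = 2.48e-05). In the sox10-high tumour libraries IRF7 stood at 298 ± 176 CPM and isg15 at 907 ± 507 CPM.

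Proteasome genes rose in the standard particle as well as in the interferon-inducible one. Of 14 constitutive core subunits, 12 rose and 0 fell (median log2 fold change 1.58). Of 12 immunoproteasome and activator genes, 8 rose and 1 fell, with 0 without Control_Low 2 (median 2.03). PSMB4 (ENSDARG00000054696), a constitutive beta subunit, had 54.1, 50.9 and 48.7 CPM in the controls and 196, 221, 208 and 236 CPM in the tumours (log2 fold change 2.07 ± 0.30, adjusted p = 7.78e-05). PSME2 (ENSDARG00000033144), a subunit of the activator that interferon gamma induces, had 54.3, 39.6 and 39.2 CPM in the controls and 259, 367, 320.5 and 225 CPM in the tumours (log2 fold change 2.72 ± 0.29, adjusted p = 4.91e-06). PSMB5 (ENSDARG00000075445), the constitutive subunit that an interferon-inducible one replaces, did not pass the test (log2 fold change 0.75 ± 0.31, adjusted p = 0.0699), except in a fit of only these 7 libraries. The groups did not overlap for PSMB4 and PSME2.

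Chemokine ligands moved in both directions. Of 37 tested, 17 rose and 9 fell, and of 20 receptors 8 rose and 2 fell (1 without Cancer_Low 2 and 1 at a CPM of at least 1 in 3 libraries). Ligand rises and falls are 45.9% and 24.3%, and those of receptors 40% and 10%, beside 17.2% and 15.5% of all genes. ccl34a.4 (ENSDARG00000090873), a CC chemokine of fish, had 7.09, 5.75 and 14.6 CPM in the controls and 480.5, 513, 594 and 112 CPM in the tumours (log2 fold change 5.54 ± 0.70, adjusted p = 2.48e-05). cxcl11.4 (ENSDARG00000101138), a ligand of the receptor family that draws effector lymphocytes and macrophages, had 0, 0 and 0.0412 CPM in the controls and 66.8, 45.3, 269.7 and 61.1 CPM in the tumours (adjusted p = 5.99e-05), and the tumour level was 7710 times the control level by 3 counts over the 3 controls, with a 95% interval of 2640 to 37400 for counting error only. Without Cancer_Low 3, the highest tumour library, the ratio was 3830, with an interval of 1310 to 18600. Both intervals take the control counts as independent and the tumour level as exact. The excess of even counts in the controls was not allowed for, so they may be too narrow. cxcl12b (ENSDARG00000055100), a ligand that retains leukocytes and stem cells in tissue, went down, with 20.9, 77.9 and 26 CPM in the controls and 2.29, 0.269, 2.005 and 0.374 CPM in the tumours (log2 fold change -5.07 ± 0.82, adjusted p = 0.000223). CXCR4 (ENSDARG00000041959), a receptor gene for ligands of the cxcl12 kind, went up, with 70.6, 90.9 and 106 CPM in the controls and 443, 482, 744 and 176 CPM in the tumours (log2 fold change 2.37 ± 0.42, adjusted p = 0.000429). Another gene shares the symbol CXCR4, and its value is not given here. Which of them pairs with cxcl12b was not tested. cxcr3.2 (ENSDARG00000041041), a receptor for the group of cxcl11.4, had 14.7, 26.3 and 20.7 CPM in the controls and 131, 151, 162 and 45.7 CPM in the tumours (log2 fold change 2.58 ± 0.46, adjusted p = 0.000444). Ligand and receptor values of the 2 groups did not overlap. cxcl8b.1 (ENSDARG00000102299), a neutrophil attractant, did not pass the test (log2 fold change 2.33 ± 0.98, adjusted p = 0.0785), with 14.8 CPM in Cancer_Low 4, under every control, but 397 CPM in Cancer_Low 2. It passed without Cancer_Low 4 and with DESeq2.

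More inflammatory cytokine genes rose than fell. Of 35 ligands, 15 rose and 2 fell, with 9 without Control_Low 3. Of 33 receptors, 14 rose and 4 fell. Cytokine ligand rises and falls are 42.9% and 5.71%, and those of receptors 42.4% and 12.1%, beside 17.2% and 15.5% of all genes. il6 (ENSDARG00000102318), an acute phase cytokine, had 0, 0.144 and 0.604 CPM in the controls and 31, 16.6, 27.4 and 6.22 CPM in the tumours (log2 fold change 6.32 ± 1.16, adjusted p = 0.000822). tnfa (ENSDARG00000009511), tumour necrosis factor, had 0.911, 0.46 and 0.0137 CPM in the controls and 38, 12, 32.6 and 5.04 CPM in the tumours (log2 fold change 5.57 ± 1.22, adjusted p = 0.00231). il1b (ENSDARG00000098700), the inflammasome product interleukin-1 beta, had 23.6, 12.6 and 31 CPM in the controls and 614, 357, 294 and 66.6 CPM in the tumours (log2 fold change 3.89 ± 0.67, adjusted p = 0.000377). Cancer_Low 4 held the least of each, at 6.22, 5.04 and 66.6 CPM, and was still above the highest control. il34 (ENSDARG00000091003), a ligand of the macrophage colony-stimulating factor receptor, was even across the tumours, with 7.58, 4.9 and 10.2 CPM in the controls and 72, 63.2, 70.6 and 80 CPM in the tumours (log2 fold change 3.24 ± 0.43, adjusted p = 4.38e-05). The receptor paralogs of that ligand differed: csf1ra (ENSDARG00000102986) had 39.9, 75 and 89.7 CPM in the controls and 309, 357, 439 and 121 CPM in the tumours (log2 fold change 2.17 ± 0.43, adjusted p = 0.00115). Its partner csf1rb (ENSDARG00000053624) did not pass the test (log2 fold change -0.14 ± 0.51, adjusted p = 0.854, and 0.17 without Cancer_Low 4). il15 (ENSDARG00000052361), which sustains natural killer cells, fell, with 29.6, 23.4 and 21.9 CPM in the controls and 7.41, 6.41, 5.13 and 6.32 CPM in the tumours (log2 fold change -1.98 ± 0.38, adjusted p = 0.000835). il4i1 (ENSDARG00000056804), an amino acid oxidase of activated myeloid cells, held 0.583, 0.144 and 0.0275 CPM in the controls and 233, 95.3, 324 and 31.3 CPM in the tumours and was named for the size of its rise (log2 fold change 9.45 ± 1.39, adjusted p = 9.68e-05).

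Genes of leukocyte movement and of the lysosome rose. Of 34 genes of leukocyte motility, 27 rose and 0 fell (median log2 fold change 2.32), and of 47 lysosome and phagocytosis genes 32 rose and 3 fell (median 1.57). CORO1A (ENSDARG00000054610), an actin regulator of leukocytes, had 82.4, 90.4 and 84 CPM in the controls and 957, 1556, 1209 and 323 CPM in the tumours (log2 fold change 3.56 ± 0.53, adjusted p = 0.000101). itgb2 (ENSDARG00000016939), the beta chain of leukocyte integrins, had 43.3, 66.1 and 69.8 CPM in the controls and 696, 1122, 661 and 242 CPM in the tumours (log2 fold change 3.51 ± 0.50, adjusted p = 7.58e-05). ptprc (ENSDARG00000071437), the leukocyte surface phosphatase CD45, had 117, 86.3 and 119 CPM in the controls and 605, 742, 766 and 229.6 CPM in the tumours (log2 fold change 2.45 ± 0.38, adjusted p = 0.000157). In all 3 the lowest tumour library, Cancer_Low 4, held more than the highest control. CTSB, a lysosomal protease that tumour cells and macrophages both use, had 68.4, 91.4 and 108 CPM in the controls and 1179, 981, 1128 and 754 CPM in the tumours (log2 fold change 3.50 ± 0.50, adjusted p = 7.63e-05), and its sox10-high tumour level was 1103 ± 972 CPM. CTSC (ENSDARG00000101334), the protease that activates granule enzymes, had 43.3, 69.4 and 67.6 CPM in the controls and 548, 612, 482 and 196 CPM in the tumours (log2 fold change 2.93 ± 0.36, adjusted p = 1.89e-05). ctsf (ENSDARG00000063095), a cathepsin, went the other way, with 165, 285 and 247 CPM in the controls and 21.6, 19.4, 25.3 and 41.6 CPM in the tumours (log2 fold change -3.11 ± 0.30, adjusted p = 2.32e-06).

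Of the markers of macrophages, neutrophils and lymphocytes tested, more rose than fell. Of 23 macrophage surface and effector genes, 13 rose and 4 fell, with 8 without Control_Low 1, and of 25 neutrophil granule and oxidase genes 19 rose and 0 fell. The macrophage shares are 56.5% and 17.4%, beside 17.2% and 15.5% of all genes, so the falls lie near the share of all genes. marco (ENSDARG00000059294), a scavenger receptor of macrophages, had 42.6, 68.8 and 83.7 CPM in the controls and 843, 208, 950.1 and 219 CPM in the tumours (log2 fold change 3.09 ± 0.56, adjusted p = 0.000538). In contrast apoeb (ENSDARG00000040295), an apolipoprotein gene that macrophages and retinal glia both use, fell, with 7654, 6033 and 6345 CPM in the controls and 424, 441, 440 and 398 CPM in the tumours (log2 fold change -3.97 ± 0.33, adjusted p = 6.27e-07). Summed over the macrophage surface and effector genes, the controls held 9247, 7852 and 8132 CPM and the tumours 5662, 5942, 5894 and 3615 CPM, less in every tumour library. Without apoeb, an alternative chosen after seeing the data, the sums were 1593, 1820 and 1786 CPM in the controls and 5238, 5501, 5454 and 3217 CPM in the tumours, more in every tumour library. These sums still include GPNMB, which is also in the pigment cell list below. It held 4.41, 8.05 and 1.54 CPM in the controls and 278, 38, 220 and 1504 CPM in the tumours. Sums without GPNMB were not computed, so the higher sum in Cancer_Low 4 may rest on that gene. Of 14 macrophage activation enzyme genes, 5 rose and 4 fell (rises of 3 without Cancer_Low 1 or Control_Low 3 and falls of 2 without Cancer_Low 3, Control_Low 2 or Control_Low 3). In the main fit 35.7% of these enzyme genes rose and 28.6% fell. NCF1 (ENSDARG00000033735), the organiser of the phagocyte oxidase, had 15, 16.8 and 22.1 CPM in the controls and 436, 833, 189.6 and 70.8 CPM in the tumours (log2 fold change 4.41 ± 0.70, adjusted p = 0.000194). lyz (ENSDARG00000057789), lysozyme of neutrophils, did not pass the test (log2 fold change 3.20 ± 1.40, adjusted p = 0.0883) with 13.1, 11.4 and 49.8 CPM in the controls and 102, 603, 69.7 and 133 CPM in the tumours, but passed with limma voom and in a fit of only these 7 libraries. Among 36 T and natural killer cell genes, 11 rose (30.6%) and 0 fell. The rising ones were 6 without Cancer_Low 3 or Control_Low 1, 7 without Control_Low 2 or Control_Low 3 and 20 with DESeq2. ZAP70 (ENSDARG00000015752), a T cell receptor kinase, had 7.29, 3.79 and 1.52 CPM in the controls and 24.8, 22.3, 196 and 22.9 CPM in the tumours (log2 fold change 3.98 ± 1.04, adjusted p = 0.00781, and 2.47 without Cancer_Low 3). cd4-1 (ENSDARG00000070668), a coreceptor of helper T cells, did not pass the test (log2 fold change 3.89 ± 1.59, adjusted p = 0.0699), with 115 CPM in Cancer_Low 3 and 8.82 to 18.2 CPM in the other tumours, though it passed in a fit of only these 7 libraries. Among 17 B cell genes, 9 rose (52.9%) and 0 fell. blnk (ENSDARG00000042722), an adaptor of B cells that myeloid cells also use, had 3.59, 4.58 and 4.15 CPM in the controls and 154, 175, 159 and 31.7 CPM in the tumours (log2 fold change 4.98 ± 0.62, adjusted p = 2.19e-05). Summed CPM of the leukocyte motility genes were 1883, 1755 and 1834 in the controls and 9116, 12350, 10900 and 3216 in the tumours. The part of leukocyte number in the interferon, cytokine, proteasome and lysosome results was not tested.

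Class II presentation and dendritic cell genes, taken as 1 list, rose in 12 of 20 cases and fell in 0. cd74a (ENSDARG00000009087), the invariant chain, had 469, 707 and 675 CPM in the controls and 2779.7, 1036, 5413 and 1581 CPM in the tumours (log2 fold change 2.13 ± 0.52, adjusted p = 0.00478), highest in Cancer_Low 3. Among complement genes 5 of 23 components rose and 3 fell, the latter 1 at a mean count of at least 100. Both shares lie near those of all genes (17.2% and 15.5%). c1qb (ENSDARG00000044612), a chain of the recognition molecule that macrophages secrete, had 22.2, 44.9 and 46.2 CPM in the controls and 359, 259.9, 543 and 122 CPM in the tumours (log2 fold change 3.09 ± 0.46, adjusted p = 0.000107). cfbl (ENSDARG00000090730), a factor B gene of the alternative pathway, had 16.9, 17.7 and 18.8 CPM in the controls and 531, 1531, 282 and 112 CPM in the tumours (log2 fold change 5.11 ± 0.88, adjusted p = 0.000363), and its groups did not overlap.

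**Figure D3:**
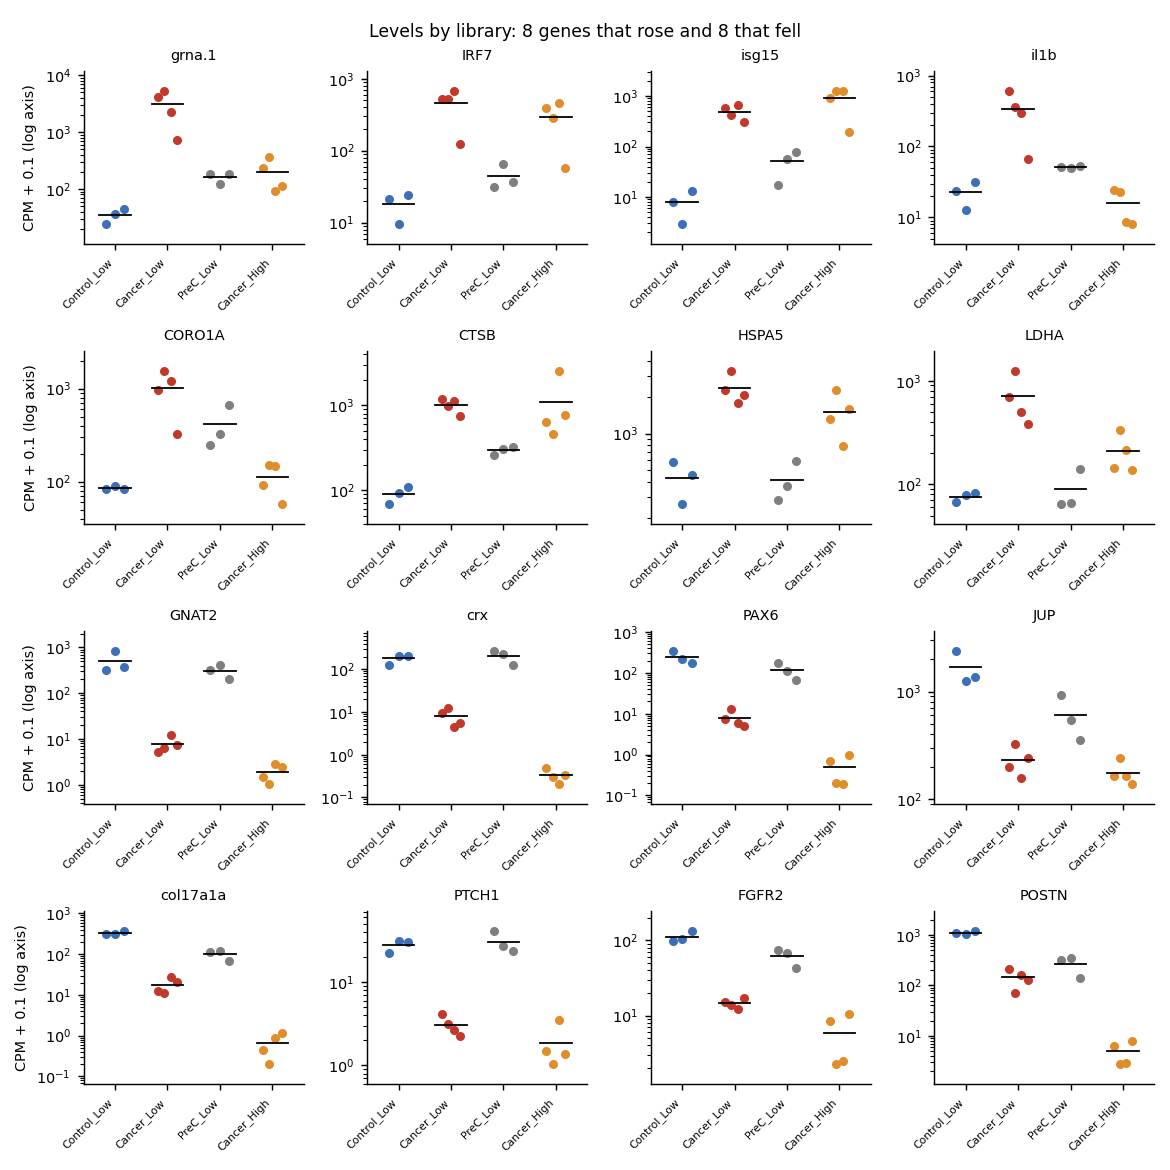
CPM (log axis, with 0.1 added) of 16 genes in each library of Control_Low (3 points), Cancer_Low (4 points), PreC_Low (3) and Cancer_High (4), with horizontal bars at the group means. The upper 8 genes rose and the lower 8 fell in the tumour against the control libraries, and the points of those 2 groups do not overlap.

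Matrix genes moved in both directions. Of 24 fibrillar and related collagens, 5 rose and 4 fell, and the rising ones were 2 without Cancer_Low 1, Control_Low 1 or Control_Low 2 and 3 without Control_Low 3, the falling ones 2 without Cancer_Low 2, Cancer_Low 3, Control_Low 1, Control_Low 2 or Control_Low 3. These are 20.8% and 16.7% of the list, near the 17.2% and 15.5% of all genes. Of 36 matrix glycoprotein genes, 6 rose and 10 fell (rises of 1 without Control_Low 1, 2 without Cancer_Low 1 and 3 without Control_Low 3). These are 16.7% and 27.8% of the list, so only the falls exceed the share of all genes. For the stroma list given next, the shares are 10.7% higher and 17.9% lower. Of 28 keratocyte and periocular stroma genes, 3 rose and 5 fell (rises of 5 with DESeq2, 5 with limma voom and a tissue block and 5 in a fit of only these 7 libraries and falls of 3 without Cancer_Low 2, Cancer_Low 4, Control_Low 2 or Control_Low 3, 8 in a fit of only these 7 libraries and 9 with limma voom and a tissue block). col1a1a (ENSDARG00000012405), the main chain of type I collagen, did not pass the test, with 726, 764 and 1005 CPM in the controls and 3309.9, 421, 713 and 843 CPM in the tumours (log2 fold change 0.67 ± 0.58, adjusted p = 0.398). Its level in Cancer_Low 1 was the highest of the 7 libraries and that in Cancer_Low 2 the lowest, and the log2 fold change was -0.34 without Cancer_Low 1. COL2A1 (ENSDARG00000069093), type II collagen of cartilage, sclera and vitreous, had 117, 136 and 111 CPM in the controls and 5.18, 5.21, 5.64 and 1.59 CPM in the tumours (log2 fold change -4.79 ± 0.73, adjusted p = 0.000127). The 2 paralogs of a type V chain went apart: col5a3a (ENSDARG00000098294) had 1.49, 1.24 and 1.69 CPM in the controls and 57.2, 7.94, 17.1 and 21 CPM in the tumours (log2 fold change 4.13 ± 0.89, adjusted p = 0.00198). col5a3b (ENSDARG00000101816) had 48.7, 31.4 and 38.7 CPM in the controls and 12.1, 10.5, 6.91 and 2.79 CPM in the tumours (log2 fold change -2.29 ± 0.59, adjusted p = 0.0070003). FN1 (ENSDARG00000019815), fibronectin of provisional matrix, had 103, 81.9 and 105 CPM in the controls and 1015, 486, 320.5 and 208 CPM in the tumours (log2 fold change 2.39 ± 0.51, adjusted p = 0.00195). ITGA5 (ENSDARG00000006353), the alpha chain of its receptor, had 17.7, 18.6 and 24.2 CPM in the controls and 108, 126, 46.2 and 166 CPM in the tumours (log2 fold change 2.47 ± 0.48, adjusted p = 0.000976). POSTN (ENSDARG00000104267), periostin, a stromal protein of cornea and other collagen-rich tissue, had 1088, 1029.6 and 1185 CPM in the controls and 215, 71, 163 and 130 CPM in the tumours (log2 fold change -2.93 ± 0.47, adjusted p = 0.000193). THBS1 (ENSDARG00000010785), thrombospondin, an inhibitor of vessel growth, had 406, 288 and 395 CPM in the controls and 42.6, 53.8, 46.9 and 94.1 CPM in the tumours (log2 fold change -2.61 ± 0.51, adjusted p = 0.000973). KERA (ENSDARG00000056938), keratocan of the corneal stroma, had 27.4, 54.5 and 26.6 CPM in the controls and 1.84, 0.651, 3.3 and 1.01 CPM in the tumours (log2 fold change -4.41 ± 1.05, adjusted p = 0.00426). In contrast DCN (ENSDARG00000012066), the widespread proteoglycan decorin, did not pass the test (log2 fold change 0.14 ± 0.67, adjusted p = 0.892, and -0.52 without Cancer_Low 1 or -0.26 without Control_Low 1).

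Matrix-cutting enzymes and their inhibitors rose more often than they fell. Of 36 proteases, 12 rose (33.3%) and 3 fell (8.33%), and of 6 inhibitors 3 rose (50%) and 0 fell, beside 17.2% and 15.5% of all genes. adam8a (ENSDARG00000001452), a sheddase of leukocytes and osteoclasts, had 21.2, 14.3 and 18.8 CPM in the controls and 253, 479.8, 173 and 278 CPM in the tumours (log2 fold change 4.03 ± 0.42, adjusted p = 4.51e-06). plaua (ENSDARG00000075265), urokinase, the activator of plasminogen, had 4.28, 4.74 and 18.7 CPM in the controls and 176, 105, 169.9 and 37.1 CPM in the tumours (log2 fold change 3.72 ± 0.62, adjusted p = 0.000267). MMP14 (ENSDARG00000008388), a membrane-bound metalloproteinase, had 37.8, 62.6 and 64 CPM in the controls and 484, 242, 204 and 210.2 CPM in the tumours (log2 fold change 2.38 ± 0.37, adjusted p = 0.000152). TIMP2 (ENSDARG00000075261), an inhibitor that can also serve as its cofactor, had 12.6, 6.34 and 27.3 CPM in the controls and 598, 155, 147 and 74.2 CPM in the tumours (log2 fold change 3.98 ± 0.68, adjusted p = 0.000324). Cancer_Low 1 was the highest library for these last 3 genes, and the groups did not overlap. mmp30 (ENSDARG00000045887), a metalloproteinase, fell, with 322, 157 and 170.4 CPM in the controls and 5.25, 7.66, 11.3 and 9.15 CPM in the tumours (log2 fold change -4.70 ± 0.40, adjusted p = 8.42e-07).

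Folding genes of the endoplasmic reticulum rose. Of 39 unfolded protein response genes, 29 rose and 1 fell (median log2 fold change 1.61). HSPA5 (ENSDARG00000103846), the master chaperone BiP, had 583, 262 and 453 CPM in the controls and 2276, 3306, 1807 and 2095 CPM in the tumours (log2 fold change 2.46 ± 0.39, adjusted p = 0.000194). ERO1A (ENSDARG00000015228), the oxidase that drives disulfide bond formation, had 2.26, 4.99 and 6.82 CPM in the controls and 204, 189, 85.4 and 225 CPM in the tumours (log2 fold change 5.23 ± 0.56, adjusted p = 5.82e-06). PDIA6 (ENSDARG00000009001), a disulfide isomerase, had 63.5, 38.2 and 39.9 CPM in the controls and 398, 536, 356 and 281 CPM in the tumours (log2 fold change 3.06 ± 0.47, adjusted p = 0.000128). In each the lowest tumour library lay above the highest control. XBP1 (ENSDARG00000035622) (log2 fold change 0.72 ± 0.39, adjusted p = 0.166) and atf4b (ENSDARG00000038141) (log2 fold change 0.54 ± 0.26, adjusted p = 0.117), transcription factor genes of the response named as members without a call, did not pass the test, and both passed without Cancer_Low 4. Transcript level does not show their activity, since splicing and translation control both. Of 75 ribosomal protein genes, 4 rose (5.33%) and 1 fell (1.33%), beside 17.2% and 15.5% of all genes. The rising ones were 0 without Control_Low 2 or Control_Low 3, 1 without Control_Low 1, 2 with no filter, 9 with limma voom and a tissue block and 9 in a fit of only these 7 libraries. In 56 of the 75 every tumour library lay above every control, beside 24.6% of all genes. RPL4 (ENSDARG00000041182), an example, had 2013, 1922 and 1885 CPM in the controls and 2253, 2690.2, 2085 and 3776 CPM in the tumours (log2 fold change 0.48 ± 0.28, adjusted p = 0.197). Of 28 cholesterol synthesis genes, 0 rose and 1 fell (0% and 3.57%), both under the shares of all genes. The falling ones were 3 without Cancer_Low 2, 3 in a fit of only these 7 libraries and 6 with limma voom and a tissue block, the rising ones 1 with DESeq2, 1 with limma voom and a tissue block, 1 in a fit of only these 7 libraries and 2 without Cancer_Low 4.

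Glycolytic and glucose transport genes moved in both directions, with related genes on opposite sides. Of 37 glycolytic enzyme genes, 13 rose (35.1%) and 10 fell (27%). Summed over them, the controls held 4582, 5297 and 5035 CPM and the tumours 11230, 16470, 9167 and 10790 CPM, more in every tumour library. Of 35 transporter and hypoxia genes, 8 rose and 7 fell (22.9% and 20%, beside 17.2% and 15.5% of all genes). LDHA (ENSDARG00000101251), the lactate dehydrogenase form that favours lactate, had 67.2, 78.2 and 81.7 CPM in the controls and 696, 1248, 499.6 and 379 CPM in the tumours (log2 fold change 3.22 ± 0.45, adjusted p = 6.44e-05). ldhbb (ENSDARG00000071076), a form that favours pyruvate, had 28.7, 63.1 and 55.4 CPM in the controls and 2.44, 2.7, 0.952 and 3.2 CPM in the tumours (log2 fold change -4.40 ± 0.44, adjusted p = 3.40e-06). Its paralog LDHB (ENSDARG00000019644) did not pass the test (log2 fold change 0.32 ± 0.30, adjusted p = 0.436). For phosphofructokinase, the committing step, PFKP (ENSDARG00000028000) had 69.2, 80.8 and 73.8 CPM in the controls and 474, 791, 361 and 500.1 CPM in the tumours (log2 fold change 2.83 ± 0.44, adjusted p = 0.000167). The related PFKL (ENSDARG00000099755) had 143, 151 and 159 CPM in the controls and 17.3, 21.1, 17.9 and 41.8 CPM in the tumours (log2 fold change -2.62 ± 0.40, adjusted p = 0.000119). Glucose transporter genes split too: slc2a3b (ENSDARG00000037861) had 65.9, 43.8 and 75.8 CPM in the controls and 682, 1322, 427 and 299 CPM in the tumours (log2 fold change 3.46 ± 0.57, adjusted p = 0.000267). SLC2A1 (ENSDARG00000001437), the form of barrier tissues, had 62.6, 122 and 111 CPM in the controls and 2.03, 1.57, 3.34 and 0.277 CPM in the tumours (log2 fold change -5.77 ± 0.66, adjusted p = 1.01e-05). Of the hypoxia factors, HIF1A (ENSDARG00000034293) did not pass the test (log2 fold change 0.58 ± 0.31, adjusted p = 0.159), though it did without Cancer_Low 4, and EPAS1 (ENSDARG00000008697), an endothelial and stromal form, had 146, 137 and 127 CPM in the controls and 20.3, 8.6, 5.98 and 3.76 CPM in the tumours (log2 fold change -3.82 ± 0.54, adjusted p = 7.11e-05). EGLN3 (ENSDARG00000032553), an oxygen-sensing hydroxylase that hypoxia induces, had 2.24, 3.85 and 3.4 CPM in the controls and 24.6, 49.7, 34.4 and 50.6 CPM in the tumours (log2 fold change 3.65 ± 0.68, adjusted p = 0.000634). Reads shared between close paralogs may be split between them, so these values are uncertain to that extent. PFKP, PFKL and SLC2A1 each share their symbol with another gene whose value is not given here, so these splits hold for the gene IDs named only.

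Transcripts of the mitochondrial genome were all lower, and few nuclear respiratory genes fell. The nuclear respiratory genes rose in 23.3% of cases and fell in 1.67%, beside 17.2% and 15.5% of all genes. All 13 protein-coding mitochondrial genes fell (median log2 fold change -1.59). Summed over them, the controls held 101700, 115800 and 68190 CPM and the tumours 30930, 32120, 34920 and 38700 CPM. MT-CO2 (ENSDARG00000063908), a core subunit of cytochrome oxidase, had 13043, 15052 and 8229.5 CPM in the controls and 3749.5, 4262, 4722 and 4635 CPM in the tumours (log2 fold change -1.48 ± 0.27, adjusted p = 0.000559). MT-ND3 (ENSDARG00000063914), a subunit of complex I, had 1060.3, 1197 and 638 CPM in the controls and 219.8, 232, 255 and 268 CPM in the tumours (log2 fold change -1.99 ± 0.32, adjusted p = 0.000198). Of 60 nuclear subunits, 14 rose and 1 fell (median 0.44), and the rising ones were 5 without Control_Low 3, 6 without Control_Low 1, 9 without Cancer_Low 2, 9 at a mean count of at least 100 and 9 with no filter. Those falling were 2 at a CPM of at least 1 in 3 libraries, 2 with RLE size factors, 3 without Control_Low 1, 3 with DESeq2 and 3 at a mean count of at least 100. ATP5F1B (ENSDARG00000070083), the catalytic subunit of ATP synthase, had 612, 990 and 822 CPM in the controls and 1135, 1324, 966 and 1108 CPM in the tumours (log2 fold change 0.49 ± 0.24, adjusted p = 0.126), which did not pass the test. The sox10-low libraries of mutant fish before cancer held 66840 to 170500 CPM of the mitochondrial genes in sum, and the sox10-high tumour libraries held 43470 to 71840 CPM.

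**Figure D4:**
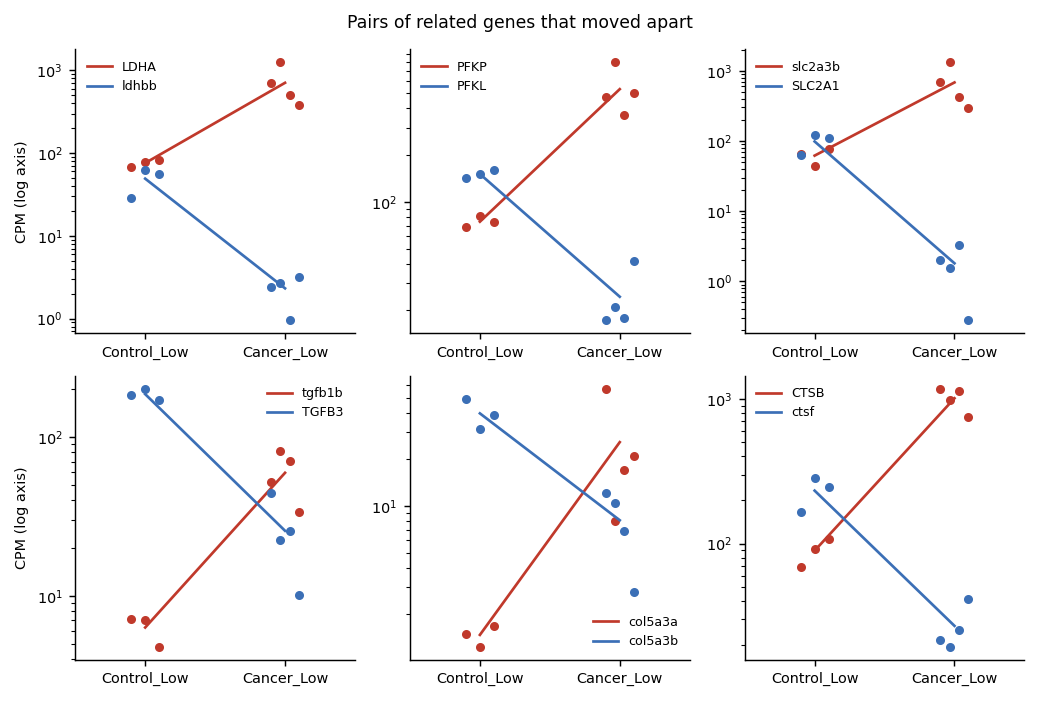
CPM (log axis) of 6 pairs of related genes in the 3 control and 4 tumour libraries, with lines joining the group means. In each pair 1 gene rose and the other fell at an adjusted p under 0.05. PFKP, PFKL and SLC2A1 each share their symbol with another gene that is not shown.

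Cell division genes rose. Of 44 replication genes, 35 rose and 0 fell, with 22 without Control_Low 2 or Control_Low 3, and of 41 mitosis genes 36 rose and 0 fell (median log2 fold change 2.72). FOXM1 (ENSDARG00000003200), the factor that drives mitotic genes, had 0.838, 1.24 and 0.961 CPM in the controls and 8.35, 8.88, 14.1 and 3.95 CPM in the tumours (log2 fold change 3.12 ± 0.53, adjusted p = 0.000321). CCNB1 (ENSDARG00000051923), a mitotic cyclin, had 2.73, 3.68 and 4.2 CPM in the controls and 20.6, 30.1, 47.3 and 41.6 CPM in the tumours (log2 fold change 3.30 ± 0.53, adjusted p = 0.000193). NEIL3 (ENSDARG00000020079), a glycosylase of replication-linked repair, had 1.64, 2.28 and 1.02 CPM in the controls and 20.5, 17.3, 29.4 and 13.1 CPM in the tumours (log2 fold change 3.61 ± 0.49, adjusted p = 4.74e-05). Groups did not overlap, and Cancer_Low 3 was the highest in all 3.

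Cell death genes rose in 18 of 40 cases (45%) and fell in 2 (5%), beside 17.2% and 15.5% of all genes. gsdmea (ENSDARG00000086762), a pore-forming gasdermin, had 6.59, 4.01 and 6.85 CPM in the controls and 60.4, 56.4, 68.6 and 94.8 CPM in the tumours (log2 fold change 3.59 ± 0.39, adjusted p = 6.76e-06). bcl2l11 (ENSDARG00000079144), a promoter of apoptosis, had 2.7, 3.09 and 3.79 CPM in the controls and 41.9, 24.7, 33.8 and 41.1 CPM in the tumours (log2 fold change 3.47 ± 0.45, adjusted p = 3.61e-05). BCL2 (ENSDARG00000089109), the inhibitor it binds, had 17.6, 15.1 and 17 CPM in the controls and 1.09, 2.02, 0.842 and 0.748 CPM in the tumours (log2 fold change -3.82 ± 0.50, adjusted p = 3.35e-05). Iron genes rose in 9 of 26 (34.6%) and fell in 2 (7.69%). fth1a (ENSDARG00000015551), a ferritin heavy chain that stores iron, had 711, 741 and 648 CPM in the controls and 2793, 2273, 1247 and 1143 CPM in the tumours (log2 fold change 1.41 ± 0.33, adjusted p = 0.00387). hamp (ENSDARG00000102175), hepcidin, the hormone that holds iron inside cells, had 0.656, 1.64 and 2.62 CPM in the controls and 29.9, 26.7, 4.03 and 23.7 CPM in the tumours (log2 fold change 3.68 ± 0.79, adjusted p = 0.00192). Antioxidant genes rose in 10 of 31 and fell in 5 (32.3% and 16.1%, beside 17.2% and 15.5% of all genes). slc7a11 (ENSDARG00000071384), the cystine importer, had 10.3, 11.9 and 12.8 CPM in the controls and 129, 215, 61.1 and 20.9 CPM in the tumours (log2 fold change 3.19 ± 0.66, adjusted p = 0.00146). NQO1 (ENSDARG00000010250), a quinone reductase that the same stress factor controls in mammals, fell, with 21, 28.5 and 11.5 CPM in the controls and 2.6, 2.75, 1.61 and 1.89 CPM in the tumours (log2 fold change -3.20 ± 0.52, adjusted p = 0.000212).

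Clock genes fell more often than they rose. Of 35 clock genes, 13 fell (37.1%) and 3 rose (8.57%), beside 15.5% and 17.2% of all genes. hlfa (ENSDARG00000074752), a clock-driven factor, had 175, 176 and 182 CPM in the controls and 18.4, 29.2, 13.9 and 15 CPM in the tumours (log2 fold change -3.21 ± 0.31, adjusted p = 2.47e-06). PER3 (ENSDARG00000010519), a period gene of the negative arm, had 413, 459.5 and 460.4 CPM in the controls and 186, 171, 193 and 139.9 CPM in the tumours (log2 fold change -1.37 ± 0.31, adjusted p = 0.00296). BMAL1 (ENSDARG00000006791), a factor of the positive arm, had 7.09, 6.14 and 6.19 CPM in the controls and 14.3, 17, 16.2 and 19.9 CPM in the tumours (log2 fold change 1.38 ± 0.28, adjusted p = 0.00127). The groups did not overlap, and the time of day of sampling is not in the labels, so it cannot be told apart from the group.

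Named prostaglandin genes of synthesis and breakdown fell. ptgdsb.2 (ENSDARG00000071626), a lipocalin of prostaglandin D synthesis, had 1584, 1285 and 1408 CPM in the controls and 21.3, 24.5, 21 and 13.8 CPM in the tumours (log2 fold change -6.14 ± 0.33, adjusted p = 3.05e-08). PTGS2 (ENSDARG00000004539), an inducible cyclooxygenase, had 1043, 496 and 581 CPM in the controls and 201, 215, 127 and 84 CPM in the tumours (log2 fold change -2.17 ± 0.35, adjusted p = 0.00023). HPGD (ENSDARG00000012016), the degrading dehydrogenase, had 103, 47.7 and 56.4 CPM in the controls and 1.66, 2.27, 1.61 and 1.42 CPM in the tumours (log2 fold change -5.31 ± 0.72, adjusted p = 4.89e-05). The groups did not overlap for these genes. The leukotriene enzyme gene LTA4H (ENSDARG00000006029) rose, with 23, 37.3 and 41.1 CPM in the controls and 180.4, 240, 144 and 39.7 CPM in the tumours (log2 fold change 2.16 ± 0.53, adjusted p = 0.0054). Its level in Cancer_Low 4 lay within the control range. Over the list of 39 lipid mediator and tryptophan genes, 8 rose and 4 fell (20.5% and 10.3%, beside 17.2% and 15.5% of all genes). The rising ones were 14 without Cancer_Low 4, and the falling ones 8 in a fit of only these 7 libraries, 9 with DESeq2 and 9 with limma voom and a tissue block.

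Endothelial genes fell more often than they rose, and mural and muscle genes moved in both directions. Of 34 mural and muscle genes, 4 rose and 4 fell (11.8% each, beside 17.2% and 15.5% of all genes). With 1 library left out the rises were 2 to 5, and under the other settings the falls were 4 to 8. Their summed level was 1181 to 1337 CPM in the controls and 1077 to 1457 CPM in the tumours. Of 34 endothelial genes, 10 fell (29.4%) and 2 rose (5.88%). The falls were 5 without Control_Low 2 and 16 with limma voom and a tissue block, and the rises 5 with DESeq2. klf2a (ENSDARG00000042667), a flow-responsive factor, had 291, 664 and 386 CPM in the controls and 83.6, 50.2, 73.5 and 34.3 CPM in the tumours (log2 fold change -2.89 ± 0.39, adjusted p = 4.38e-05). KDR (ENSDARG00000017321), the main receptor of vascular growth factor, had 16.3, 43.7 and 23.3 CPM in the controls and 10.8, 4.38, 4.41 and 1.7 CPM in the tumours (log2 fold change -2.38 ± 0.49, adjusted p = 0.00134). Pericyte marker RGS5 (ENSDARG00000002644) had 201, 333 and 281 CPM in the controls and 73.2, 91.3, 33.3 and 24 CPM in the tumours (log2 fold change -2.29 ± 0.45, adjusted p = 0.00106), and its groups did not overlap. TAGLN (ENSDARG00000033466), a smooth muscle and fibroblast protein, did not pass the test (log2 fold change 0.34 ± 0.26, adjusted p = 0.339).

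Several pigment cell genes were highest in Cancer_Low 4, the library with the most SOX10. Of 26 iridophore and xanthophore genes, 8 rose and 3 fell (30.8% and 11.5%, beside 17.2% and 15.5% of all genes). pnp4a (ENSDARG00000057575), a purine enzyme of iridophores, had 2.004, 1.12 and 1.19 CPM in the controls and 93.4, 9.77, 87.1 and 869 CPM in the tumours (log2 fold change 7.52 ± 1.23, adjusted p = 0.000233), and the sox10-high tumour libraries 1326 ± 446 CPM. EDNRB (ENSDARG00000089334), the endothelin receptor of pigment cells, had 0, 0 and 0.0275 CPM in the controls and 14, 1.46, 17.4 and 166 CPM in the tumours (adjusted p = 0.000316), and the tumour level was 5040 times the control level by 2 counts over the 3 controls, with a 95% interval of 1400 to 41600 for counting error only. Without Cancer_Low 4 the ratio was 1140, with an interval of 317 to 9450. Both intervals take the control counts as independent and the tumour level as exact. The excess of even counts in the controls was not allowed for, so they may be too narrow. GPNMB (ENSDARG00000062688), a melanosome and macrophage glycoprotein, had 4.41, 8.05 and 1.54 CPM in the controls and 278, 38, 220 and 1504 CPM in the tumours (log2 fold change 6.77 ± 1.04, adjusted p = 0.000143). ltk (ENSDARG00000042861), the kinase that specifies iridophores, had 1.82, 6.94 and 10.9 CPM in the controls and 116, 8.79, 328 and 521 CPM in the tumours (log2 fold change 5.21 ± 1.13, adjusted p = 0.00208). In these 4 genes, as in SOX10, Cancer_Low 4 was highest and Cancer_Low 2 lowest. TFEC (ENSDARG00000098745), an iridophore factor, was less uneven, with 5.67, 7.47 and 8.62 CPM in the controls and 91.7, 63.2, 81.9 and 224 CPM in the tumours (log2 fold change 3.99 ± 0.45, adjusted p = 1.01e-05). Among 37 Schwann and neural crest genes, 11 fell and 5 rose, the latter 3 with limma voom and a tissue block. In the main fit these are 29.7% and 13.5% of the list, beside 15.5% and 17.2% of all genes. NCAM1 (ENSDARG00000007220), a neural adhesion molecule, had 116, 187 and 177 CPM in the controls and 6.39, 11.3, 9.04 and 8.5 CPM in the tumours (log2 fold change -4.18 ± 0.62, adjusted p = 9.71e-05). The part of sox10-high cells in the low gate in these values was not tested.

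Single tumour libraries stood apart for several genes. The median SD of log2 CPM was 0.643 among the tumour libraries and 0.416 among the controls. Cancer_Low 2 alone was rich in teni.1 (ENSDARG00000105096), at 189, 8734, 33.7 and 9.52 CPM in the 4 tumours, in spink2.2 (ENSDARG00000103833), a serine protease inhibitor gene, at 37.1, 2295, 18.7 and 0.868 CPM, and in c3a.4 (ENSDARG00000093198), a complement C3 gene, at 40.6, 3184, 19.1 and 8.15 CPM. Control levels of these were 0.984, 1.84 and 0.522, 0.874, 0.172 and 0.412 and 0.0182, 0.0718 and 0.439 CPM. Calls on teni.1 ended without Control_Low 1 (adjusted p = 0.0525) or Control_Low 3 (adjusted p = 0.0587). Those on spink2.2 ended without Cancer_Low 2 (adjusted p = 0.0601), Control_Low 2 (adjusted p = 0.0649) or Control_Low 3 (adjusted p = 0.0664), and all 3 ended with limma voom. Without Cancer_Low 2 the log2 fold changes were 6.12, 5.28 and 6.96, against 10.97, 10.25 and 12.11 with it. In Cancer_Low 4, GBX2 (ENSDARG00000002933), a homeobox factor, stood at 501 CPM, against 4.13, 0.68 and 0.831 CPM in the others, and without it the log2 fold change went from 7.70 (adjusted p = 0.0341) to 1.63 (adjusted p = 0.434). Leaving out Control_Low 1, 2 or 3 also ended that call (adjusted p = 0.0991, 0.111 and 0.101). The class II genes mhc2dga (ENSDARG00000103716) and mhc2dgb (ENSDARG00000104635) were at 93.7, 64.3, 209.9 and 0 and 140, 66.3, 319 and 0.0482 CPM, near 0 in Cancer_Low 4 only. Heavy chain ighm (ENSDARG00000096355) of antibodies had 14.9, 349, 1152 and 30.5 CPM, and its call (log2 fold change 5.71 ± 2.005, adjusted p = 0.0385) ended without Cancer_Low 3 or any 1 control (adjusted p = 0.095, 0.113, 0.123 and 0.0926). jac4 (ENSDARG00000092352) was at 49.6, 125, 0.155 and 137 CPM, near 0 in Cancer_Low 3 only, and at 0, 0.101 and 0 CPM in the controls. Type I collagen and fibronectin genes peaked in Cancer_Low 1, as given above.

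**Figure D5:**
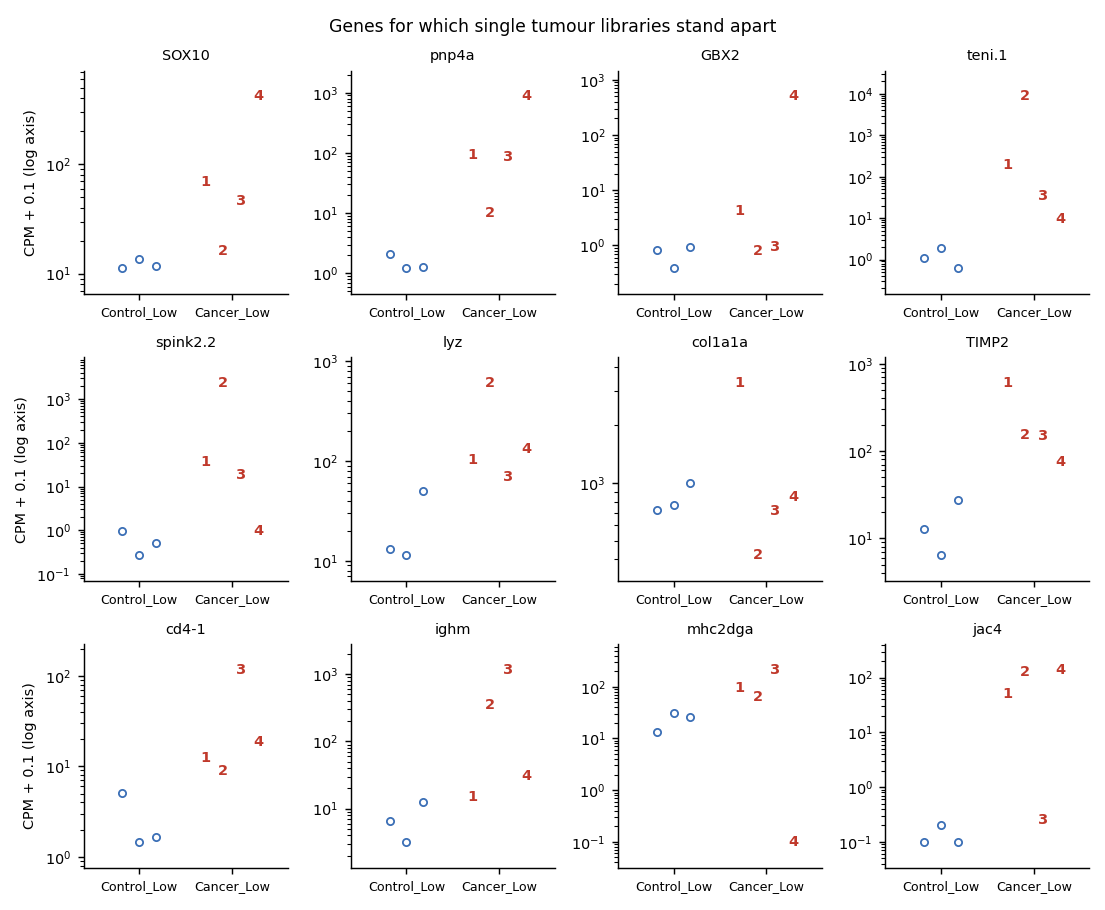
CPM (log axis, with 0.1 added) of 12 genes in tumour libraries 1 to 4 (numbered points) beside the 3 control libraries (open points). Cancer_Low 4 is highest for SOX10, pnp4a and GBX2, Cancer_Low 2 for teni.1 and spink2.2, Cancer_Low 1 for col1a1a and TIMP2, and Cancer_Low 3 for cd4-1 and ighm.

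The pre-cancerous sox10-low libraries (PreC_Low, n = 3), from reporter fish with the same brca2 allele at 4.5 to 4.7 months, were set beside the tumour libraries for a few of these genes. Against them 1852 of 23299 genes were higher in the tumour libraries (7.95%) and 2588 lower (11.1%). GNAT2 stood at 310.1 ± 101 CPM in PreC_Low (tumour against it, log2 -5.34 ± 0.46, adjusted p = 1.09e-06), PTCH1 at 30.4 ± 9.16 CPM (log2 -3.37 ± 0.43, adjusted p = 4.89e-05) and LDHA at 90.2 ± 43 CPM (log2 2.97 ± 0.45, adjusted p = 0.000208). IRF7 stood at 44.6 ± 18.8 CPM (log2 3.38 ± 0.67, adjusted p = 0.00206), HSPA5 at 416 ± 163 CPM (log2 2.51 ± 0.39, adjusted p = 0.000295) and grna.1 at 164 ± 36.5 CPM (log2 4.26 ± 0.74, adjusted p = 0.000731). Most named genes were picked for their difference from the controls, and the same tumour libraries enter both tests. A high overlap is therefore partly built in and is no independent support. Of 74 named genes higher than in the controls 59 were also higher than in PreC_Low, and of 62 lower 57 were also lower. The other 20 did not pass against PreC_Low, among them CCNB1 (log2 1.15 ± 0.48, adjusted p = 0.103), FOXM1 (log2 1.14 ± 0.48, adjusted p = 0.111), CORO1A (log2 1.28 ± 0.47, adjusted p = 0.0677), ptprc (log2 0.77 ± 0.36, adjusted p = 0.144), cd74a (log2 1.09 ± 0.50, adjusted p = 0.138), tgfb1b (log2 0.82 ± 0.58, adjusted p = 0.359) and cdh1 (log2 -0.89 ± 0.51, adjusted p = 0.247). Summed replication genes stood at 456, 584 and 2379 CPM in PreC_Low 1, 2 and 3, and the last of these lay above every sox10-low tumour library (1299 to 1942 CPM). These groups differ together in age, tumour state, sample code (ONP against OT), library index range and low counts, but share the mutant genotype as far as it is given here. In PreC_Low, 60.8 to 77.8% of counts between 20 and 100 were even numbers, against 51.4 to 53.9% in the tumour libraries. The parts of these differences cannot be told apart. Neither T cell gene named above passed this test: ZAP70 was at 114 ± 112 CPM in PreC_Low (log2 -0.78 ± 0.87, adjusted p = 0.588) and cd4-1 at 106 ± 159 CPM (log2 -1.46 ± 1.34, adjusted p = 0.495).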

How the data were processed

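RNA was sequenced from 17 libraries in 5 groups, and the authors deposited raw counts per Ensembl gene. FastQC, STAR, HTSeq and DESeq2 with the build danRer10 are named in the submitters' processing notes, with versions, parameters and strand setting not given in the sources used here. Depth was 58711787 to 87244522 counts in the 7 libraries compared. Symbols came from a table that matched 26237 of 31701 IDs, many of them spelled as in human.

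Counts were fitted with edgeR 4.0.16 (R 4.3.3; TMM scaling, robust quasi-likelihood test, a filter at a minimum count of 10 and a total of 15) over all 17 libraries, which share 1 estimate of the spread. The contrast was Cancer_Low minus Control_Low, with Benjamini-Hochberg adjustment over 23299 genes. Sox10-high and sox10-low libraries of the tumours share tissue labels, as do those from before cancer, and the main fit takes them as independent. The ± after a log2 fold change is its standard error, computed from the size of the change and its F statistic, and the ± after a CPM is the SD. Alternatives were RLE size factors, other filters on low counts, only the 7 libraries, a replicate block, DESeq2 1.42.0, limma 3.58.1 voom with tissue as a block, and leaving out each library. In simulated data with 200 changed genes, the test called 33 of 100 genes at a log2 change of 2 and 88 of 100 at 4. It also called 3 unchanged genes. Far fewer genes changed there than were called in the real data, which makes the adjusted threshold stricter. The simulated shares therefore do not give the power of the real comparison.

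The gene lists and the members were chosen with earlier results of these data known. Genes were named by rule: the 15 strongest rises and 15 strongest falls (called, no clone name as symbol, mean log2 CPM of at least 2, no overlap of the groups), the 15 most abundant genes of each group, up to 8 called and 4 uncalled members of each list role, the 10 most variable genes among the tumours, and markers. The text gives 155 of them. Paralogs share symbols, and reads of close copies may be split between them. A few genes are not reported here, nor is part of the genotype.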

Additional observations from a re-analysis of the deposited data

Results flagged for a closer look

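Among the 155 genes named, 20 had 1 tumour library far from the other 3, by a gap to the nearest that exceeded Dixon's 95% critical value. For normal data chosen without regard to spread, that value flags about 1 in 20 groups of this size. Some genes here were named for their spread among these same libraries, and CPM were used without a log. The rate therefore does not apply to this set. The 20 genes are given as a description, by library. In Cancer_Low 4 these were SOX10 at 418 CPM, pnp4a at 869 CPM, EDNRB at 166 CPM, GPNMB at 1504 CPM, GBX2 at 501 CPM and PFKL at 41.8 CPM, each above the other tumours. In the same library blnk at 31.7 CPM and COL2A1 at 1.59 CPM lay below them. In Cancer_Low 2 they were teni.1 at 8734 CPM, c3a.4 at 3184 CPM, spink2.2 at 2295 CPM, lyz at 603 CPM and TAGLN at 726 CPM. In Cancer_Low 1 they were col1a1a at 3309.9 CPM, TIMP2 at 598 CPM, MMP14 at 484 CPM and NID1 at 279.8 CPM. In Cancer_Low 3 they were cxcl11.4 at 269.7 CPM, ZAP70 at 196 CPM and cd4-1 at 115 CPM.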

How the results depend on the processing

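Genes higher in the tumour libraries numbered 4015 and, with 1 library left out, 2632 to 3839; genes lower numbered 3616, and 2921 to 3641. List members called numbered 866, and 697 to 887. The lowest count of higher genes, 2632 without Control_Low 3, is under the main count by more than 1.5 times; fewer control libraries entered that fit. Across the other settings the counts were 3445 to 4730 higher and 3545 to 4487 lower. The falls outnumber the rises with limma voom (3990 higher, 4381 lower), at a mean count of at least 100 (3445 and 3576), with RLE size factors (3790 and 3791, against 4015 and 3616 with TMM), and without Control_Low 1 (2905 and 3068), 2 (2910 and 2941) or 3 (2632 and 2921). For single named genes, 1203 of 1234 values under other settings and 1059 of 1085 with a library left out kept direction and side of the threshold.

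The replicate numbers were used as a block in 1 fit of the 7 libraries, which called 3791 genes higher and 3973 lower, and 942 list members. Same-numbered libraries did not deviate together (r = -0.045, -0.0489 and 0.00109), so the numbers are not taken as a pairing. In that fit csf1rb changed direction (0.10), and the calls on ZAP70 (adjusted p = 0.0563), NID1 (0.0695), ltk (0.0598) and GBX2 (0.108) ended. Of 132 list counts, 22 moved by more than 1.5 times, among them the rising basement membrane genes, to 0.

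Values that changed direction belonged to genes that did not pass the test. csf1rb was at 0.17 without Cancer_Low 4 (range with 1 library left out, -0.60 to 0.17) and col1a1a at -0.34 without Cancer_Low 1 (-0.34 to 0.96). DCN was at -0.52 without Cancer_Low 1 and -0.26 without Control_Low 1 (-0.52 to 0.50). With limma voom mhc2dga was at -1.30 and mhc2dgb at -1.15. The causes were not tested.

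Among the genes called higher, 339 had no count in any control library, and no fold is given for them. The parts of depth and of the group difference in low counts in this were not tested.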

Other observations

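Further gene groups gave these counts. Of 24 tRNA synthetase and serine synthesis genes, 14 rose and 2 fell in the tumour libraries, with rises of 5 without Control_Low 3 and 7 without Control_Low 2 and falls of 0 without Cancer_Low 1, Cancer_Low 3, Control_Low 1 or Control_Low 3 and 1 without Cancer_Low 2 or Control_Low 2. Of 14 adaptors of pathogen sensing, 7 rose and 0 fell. Of 37 Fanconi and homologous recombination genes, the repair pathway in which brca2 acts, 10 rose and 1 fell, and the rising ones were 5 without Control_Low 1, 6 without Cancer_Low 3, 17 with DESeq2 and 17 in a fit of only these 7 libraries. Of 29 mesenchymal transition factors and adhesion genes, 8 rose and 2 fell, with rises of 5 without Control_Low 1 or Control_Low 3 and falls of 4 with DESeq2. In the order given, the rises are 58.3%, 50%, 27% and 27.6% of these lists, beside 17.2% of all genes. The falls are 8.33%, 0%, 2.7% and 6.9%, beside 15.5% of all genes. Erythroid genes rose in 2 of 15 cases and fell in 0, and their summed level was 351 to 576 CPM in the controls and 71.2 to 538 CPM in the tumours. Erythroid rises are 13.3% of the list and the melanophore rises given next 12.5%, beside 17.2% of all genes. Melanophore genes rose in 2 of 16 cases and fell in 0, with rises of 1 without Control_Low 1, Control_Low 2 or Control_Low 3, 1 with limma voom and a tissue block and 1 at a mean count of at least 100.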
